A study of Mus musculus with 2 samples.

Results

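DNase I cuts DNA where chromatin is open, and sequencing of the cut fragments maps accessible regulatory DNA across the genome. The regions described here are the strong DNase-seq peaks of one of 2 adipocyte libraries that had no counterpart in the other. Both libraries came from mouse adipocytes that had been cultured from 3T3-L1 preadipocytes, a line of fibroblast shape that stores fat once induced, and were taken on day 8. The labels number them as biological replicates 2 and 1 of this 1 group, with no genetic change, no treatment beyond differentiation and no undifferentiated control analysed here. A single cell line stands behind both libraries, whose donor record is the same, and the labelled strain is C57BL/6J although the line is usually traced to Swiss mice. The sites were chosen by their measured values, as autosomal replicate 2 peaks with a deposited value of 100 or more that overlapped, by even 1 bp, no replicate 1 peak and no replicate 1 hotspot, the wider region of raised cutting in which peaks lie. This rule found 666 sites among 49809 strong autosomal replicate 2 peaks and 210226 autosomal replicate 2 peaks in all. A further 47619 strong peaks overlapped a replicate 1 peak and are called shared below, and 1524 overlapped a replicate 1 hotspot but no replicate 1 peak.

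In a differentiating adipocyte, C/EBP factors and PPARγ, which binds DNA as a partner of RXR at direct repeats called DR1 sites, open enhancers around genes of lipid storage and insulin response. Active genes commonly carry many such open elements in clusters around the promoter and through introns. CTCF, by contrast, binds a long fixed motif at insulators and loop anchors that are open in most cell types.

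The DNA of 8 sites is shown because they carry the results that follow. They are the sites of highest value at genes of fat storage and adipocyte regulation, those with a DR1 match, and 1 site from each of 2 dense runs. All are 150 bp peaks read from the plus strand of GRCm38, the assembly also called mm10, and those lying in untranslated regions are not printed. Capitals mark matches to any of the 23 searched motifs.
Pnpla2 intron site, chr7:141456896-141457045: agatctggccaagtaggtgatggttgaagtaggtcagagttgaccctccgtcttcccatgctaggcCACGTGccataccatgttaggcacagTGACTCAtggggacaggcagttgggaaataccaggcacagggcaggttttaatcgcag
Rxra upstream site, chr2:27599916-27600065: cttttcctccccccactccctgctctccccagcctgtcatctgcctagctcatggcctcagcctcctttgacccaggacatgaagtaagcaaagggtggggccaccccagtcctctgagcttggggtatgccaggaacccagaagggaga
Klf9 upstream site, chr19:23136616-23136765: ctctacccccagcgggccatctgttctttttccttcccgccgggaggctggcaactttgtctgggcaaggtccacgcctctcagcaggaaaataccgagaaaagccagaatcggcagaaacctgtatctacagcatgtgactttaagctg
Lpl intron site, chr8:68903056-68903205: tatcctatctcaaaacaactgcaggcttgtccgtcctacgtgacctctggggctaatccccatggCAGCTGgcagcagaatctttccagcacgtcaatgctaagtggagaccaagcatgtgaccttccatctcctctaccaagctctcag
Rara intron site, chr11:98945696-98945845: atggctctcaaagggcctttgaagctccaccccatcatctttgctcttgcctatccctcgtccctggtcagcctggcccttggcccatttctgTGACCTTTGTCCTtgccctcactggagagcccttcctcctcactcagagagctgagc
Commd3 exon site, chr2:18674296-18674445: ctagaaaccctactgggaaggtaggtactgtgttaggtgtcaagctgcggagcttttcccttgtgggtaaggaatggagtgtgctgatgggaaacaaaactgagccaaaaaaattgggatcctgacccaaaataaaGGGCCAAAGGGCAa
Cwc22 intron site, chr2:77920196-77920345: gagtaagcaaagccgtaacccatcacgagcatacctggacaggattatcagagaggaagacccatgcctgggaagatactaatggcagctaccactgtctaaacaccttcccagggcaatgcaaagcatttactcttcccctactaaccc
Cpsf6 upstream site, chr10:117410916-117411065: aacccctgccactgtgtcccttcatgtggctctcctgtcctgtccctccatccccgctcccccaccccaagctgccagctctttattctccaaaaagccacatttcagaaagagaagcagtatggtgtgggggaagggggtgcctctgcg
In the Pnpla2 sequence the capitals are an E-box CACGTG and an AP-1 match, in the Lpl sequence an E-box CAGCTG, and in the Rara and Commd3 sequences a DR1 match. The Rxra, Klf9, Cwc22 and Cpsf6 sequences hold no match to the letters searched.

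The libraries differed in the extent of their region lists before any strong peak was chosen. Replicate 2 had 210226 autosomal peaks and 74.3 Mb of autosomal hotspots, against 130001 peaks and 44.2 Mb in replicate 1. A value of 100 was reached by 23.7% of autosomal replicate 2 peaks, whereas 92.3% of autosomal replicate 1 peaks stayed below it, so a value ranks a peak inside its own library and no further. Read depth is unknown for both. The part of depth in the results below was not tested. None of 9962 replicate 1 peaks with a value of 100 or more lacked a replicate 2 region, which allows a share of up to 0.0301%. With the replicate 1 threshold lowered to 71, which 23.4% of its peaks reached, 0 of 30426 lacked one, which allows up to 0.00986%. Promoter peaks at 37 marker genes were present or absent alike in both libraries, with 8 of 8 adipocyte markers open in each. Of 5 fibroblast and preadipocyte markers 4 were open and Dlk1 was not. Among markers of other lineages Acta1, Spi1, Snap25 and Rbfox3 had a promoter peak in both libraries, while Alb, Ptprc, Pecam1, Epcam, Nanog and the remaining ones had none in either.

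The sites made up 1.34% of the strong autosomal replicate 2 peaks, and since the rule used the same peak lists this share is a description. Their values ran from 100 to 149 with a median of 107. Among peaks with values of 100 to 109, 377 of 13537 (2.78%, exact 95% interval 2.51% to 3.08%) had no replicate 1 region, against 36 of 6684 (0.539%, 0.378% to 0.745%) among those of 140 to 150. Just inside the threshold, 72 of 1489 peaks with a value of exactly 100 had no replicate 1 region, and just outside it 77 of 1436 with a value of 99. Intervals here and below cover counting error only, and neighbouring sites are not independent of each other.

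**Figure D1:**
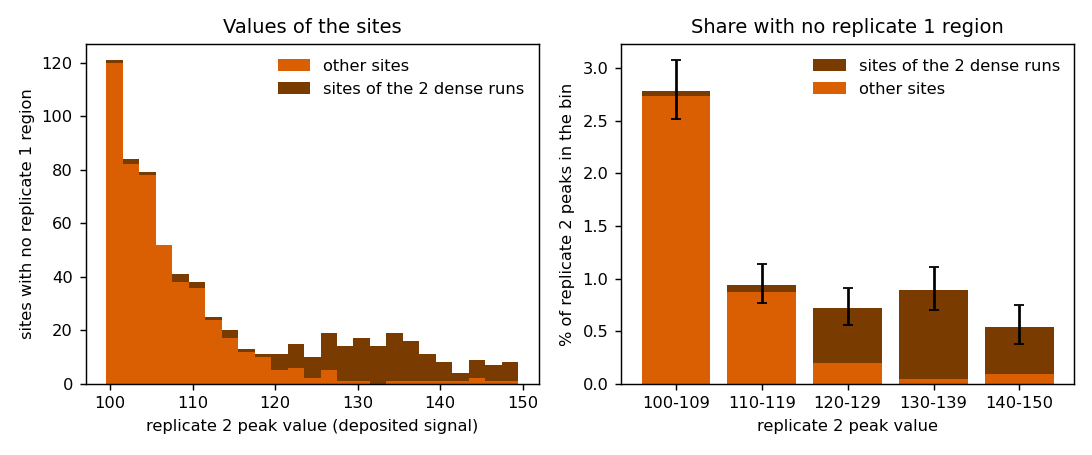
Left, number of sites at each replicate 2 peak value (deposited signal), with those of the 2 dense runs in brown and all others in orange. Right, the percentage of strong replicate 2 peaks in each value bin that had no replicate 1 region, with exact 95% intervals on the whole bar: it is 2.78% at 100 to 109, and above 120 most of each bar belongs to the dense runs.

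Position along the chromosomes divided the sites into a pair of dense runs and a scatter of small groups. When sites less than 10 kb apart were joined, a definition chosen after the sites had been seen, 1 run on chromosome 2 held 133 sites and 1 on chromosome 10 held 35. The other 498 sites fell into 264 single sites and 77 runs of 2 to 12 sites. The dense runs accounted for the high values: their median value was 132, against 105 for the sites outside them. Of the 182 sites with a value of at least 120, 153 lay in the dense runs. Chromosomes other than 2 and 10 had between 0.255% (chromosome 13, 5 sites) and 2.02% (chromosome 19, 40 sites) of their strong peaks as sites. Without the dense runs chromosomes 2 and 10 had 0.945% and 0.892%.

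The chromosome 2 run spanned 106 kb (77891256 to 77997365) over and around Cwc22, which encodes a splicing factor and lies in a segment known to vary in copy number between mouse strains. Copy number was not measured here. Of its 133 sites, 87 lay inside Cwc22 and 46 outside any protein-coding gene, with values from 101 to 145. Replicate 2 had 192 peaks in the span with a median value of 133, and replicate 1 had 55 with a median of 114. Hotspots covered 84.2% of the span in replicate 2 and 20.5% in replicate 1. The 25 kb before the run differed from it and held 40 replicate 2 peaks and 37 replicate 1 peaks, with median values of 125 and 77. In the 25 kb after the run the numbers were 28 and 26, with medians of 129.5 and 81.5. Replicate 2 had 18.1 peaks per 10 kb inside the run, 16 before and 11.2 after it. Replicate 1 had 5.18 per 10 kb inside, 14.8 before and 10.4 after it.

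The chromosome 10 run spanned 70.9 kb (117399716 to 117470645), all of it intergenic and upstream of Cpsf6, which encodes a subunit of the mRNA 3′-end processing machinery. Its 35 sites had values from 103 to 149. Both libraries were densely tiled here, with 145 peaks in the span in replicate 2 and 100 in replicate 1, and hotspots covered 89.96% in replicate 2 and 50.6% in replicate 1. Every one of these sites had a replicate 1 peak within 1000 bp, and 31 of 35 had one within 500 bp. A smaller run of 7 sites upstream of Cpm, a membrane carboxypeptidase gene on the same chromosome, looked alike. Its values were 139 to 148, and the span held 21 replicate 2 peaks and 14 replicate 1 peaks. In DNA content both dense runs stood apart from shared peaks of the same values. Promoters held 41.5% of those shared peaks, taken from all autosomes, and 0.595% of the sites of the 2 runs. The part of promoter position in the differences was not tested. Median GC content was 45.3% in the sites of the runs, against 54.7%. More than 50% of bases were in annotated repeats in 20.2% of these sites (exact 95% interval 14.4% to 27.1%), against 1.68% of shared peaks. The runs differed in this, with 17 of 133 sites (12.8%) on chromosome 2 and 17 of 35 (48.6%) on chromosome 10. More than 50% of the 31-base words of a site occurred elsewhere in the assembled chromosomes in 5 of 168 sites. That is 2.98% (0.973% to 6.81%), against 0.0833% of shared peaks of the same values. Of these 5 sites, 3 were among the 35 of the chromosome 10 run. The part of read placement in these runs was not tested.

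**Figure D2:**
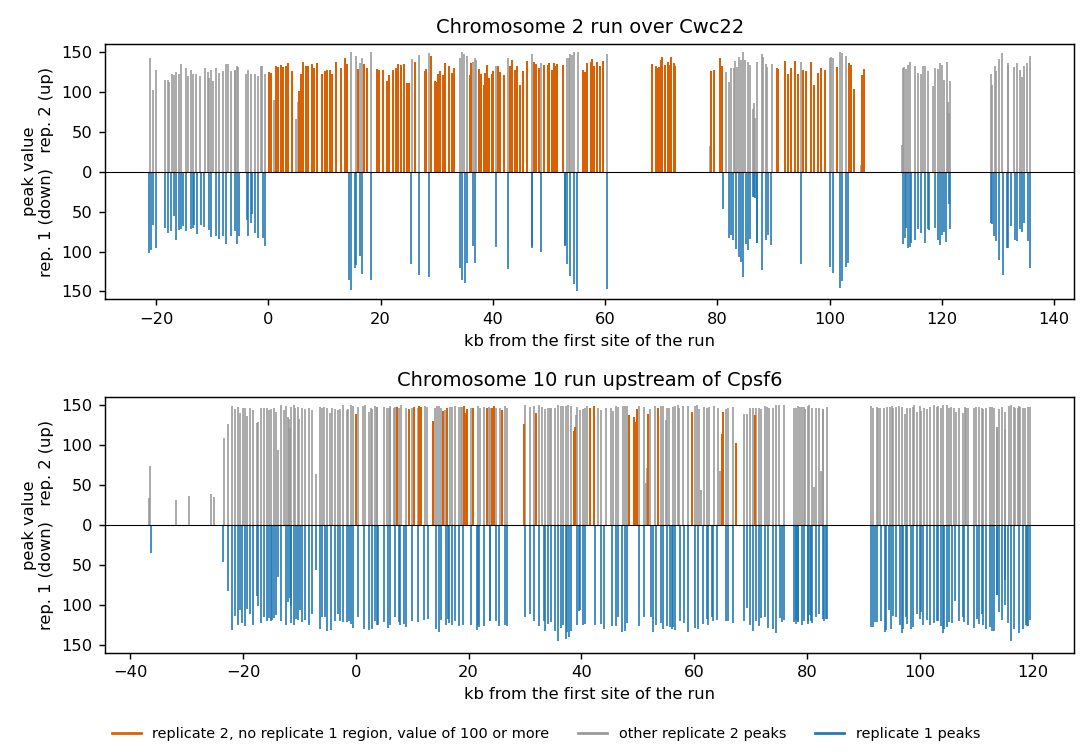
Peak values along the 2 dense runs, with replicate 2 drawn upwards and replicate 1 downwards from 0, against distance in kb from the first site of each run. In the chromosome 2 run 133 replicate 2 sites (orange) stand over stretches with few replicate 1 peaks (blue), while both flanks are filled in both libraries. In the chromosome 10 run the 35 sites stand in small gaps of a replicate 1 list that is otherwise full.

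The 498 sites outside the dense runs lay near the threshold, with values from 100 to 148 and the 10th to 90th percentiles at 100 and 116. Their median GC content was 52.7% (exact 95% interval 52.0% to 53.3%), above the 50.7% of shared peaks of the same values. More than 50% of bases were in annotated repeats in 2.81% of them (1.55% to 4.67%), an interval that includes the 3.06% of shared peaks. Their centres were promoter-proximal, within 1000 bp of a protein-coding start, in 89 cases (17.9%, exact 95% interval 14.6% to 21.5%), and in 17.6% of shared peaks. Exons held 39 sites (7.83%, 5.63% to 10.6%), against 4.26% of shared peaks. Introns held 207 (41.6%, 37.2% to 46.0%), against 38.9%, and intergenic DNA held 163 (32.7%, 28.6% to 37.0%), against 39.2%. The exon interval lay above the share in shared peaks and the intergenic interval below it, while the promoter and intron intervals included it. Counted once per hotspot, the promoter share was 16.9% of 445 hotspots (13.5% to 20.7%), against 9.96% of shared hotspots of the same values.

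**Figure D3:**
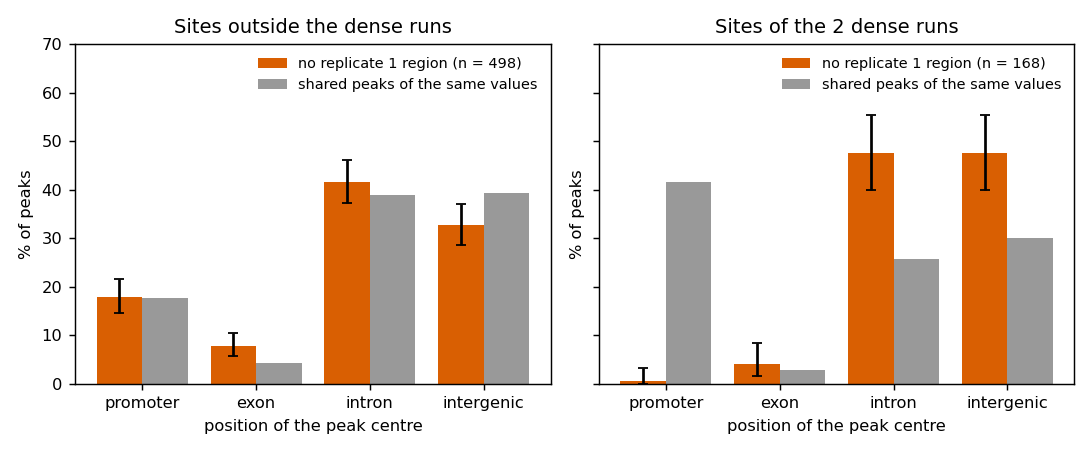
Percentage of peak centres in promoters (within 1000 bp of a protein-coding start), exons, introns and intergenic DNA, for sites with no replicate 1 region (orange, exact 95% intervals) and shared replicate 2 peaks weighted to the same values (grey). Outside the dense runs the promoter bars are level at 17.9% and 17.6%. Of the sites in the dense runs 0.595% are at promoters. The grey bar beside them, 41.5%, is for shared peaks of all autosomes weighted to their values.

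Over all 666 sites, dense runs included, the promoter share was 13.5% (exact 95% interval 11.0% to 16.3%), against 23.7% of shared peaks of the same values. Of the 46 exonic sites among all 666, 23 overlapped a 3′ untranslated region. All of those lay outside the dense runs, where 23 of 39 exonic sites overlapped one, 13 overlapped coding sequence and none overlapped a 5′ untranslated region beyond the promoter window. Exonic sites over a 3′ untranslated region made up 4.62% of sites (2.95% to 6.85%), against 2.32% of shared peaks. That split was looked at after the exon share had been seen. Centres within 1000 bp of a transcript end and not at a start made up 6.02% of sites outside the dense runs (4.10% to 8.49%), an interval that includes the 4.23% of shared peaks. Among them were the 3 sites of Scd1, the stearoyl-CoA desaturase that makes monounsaturated fatty acids, with values of 124, 117 and 129 in replicate 2. They shared 1 replicate 2 hotspot of 4312 bp, while the nearest replicate 1 peaks, 50 to 1050 bp away, had values of 69 and 93. Polr2l, which encodes a small RNA polymerase subunit, had a site of value 127 in its 3′ untranslated region, and the nearest replicate 1 peak was 3470 bp away.

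Sites outside the dense runs lay closer to genes and in more crowded DNA than shared peaks did. The median distance to a protein-coding start was 5500 bp (exact 95% interval 4897 to 7190 bp), against 13724 bp, and 60.6% of sites (56.2% to 65.0%) were within 10 kb of one, against 43.5%. Within 5 kb of a site there were a median of 7 other replicate 2 peaks (6 to 7), against 2 around shared peaks. Replicate 1 was also present nearby, with a median of 2 peaks within 5 kb of a site, against 1 around shared peaks besides the peak's own partner. The median site was 1040 bp from the nearest replicate 1 peak. Only 67 of 498 (13.5%, 10.6% to 16.8%) had none within 5 kb, and 146 (29.3%) had one within 500 bp. That nearest replicate 1 peak had a median value of 79.

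Hotspot widths of the sites outside the dense runs spread further at both ends than those of shared peaks of the same values. The 10th percentile was 280.7 bp for sites and 336 bp for shared peaks, and the 90th was 3990 bp and 1982 bp. The replicate 2 hotspot around a site had a median width of 670.5 bp (607 to 837 bp), against 584 bp for shared peaks of the same values. Hotspots of 1000 bp or more held 40.4% of sites (36.0% to 44.8%), against 26.3% of shared peaks, and the site was the only peak of its hotspot in 49.4% (44.9% to 53.9%), against 66.0%. Counted once per hotspot, the medians were 593 bp (497 to 669 bp) and 510 bp, and that interval includes the value of shared hotspots. For all 666 sites the median was 958.5 bp (845 to 1122 bp), against 689 bp. In statistical strength the hotspots of sites were not the stronger ones. The ceiling of 100 in −log10 q was reached around 84.3% of sites outside the dense runs (80.8% to 87.4%), against 99.2% of shared peaks.

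**Figure D4:**
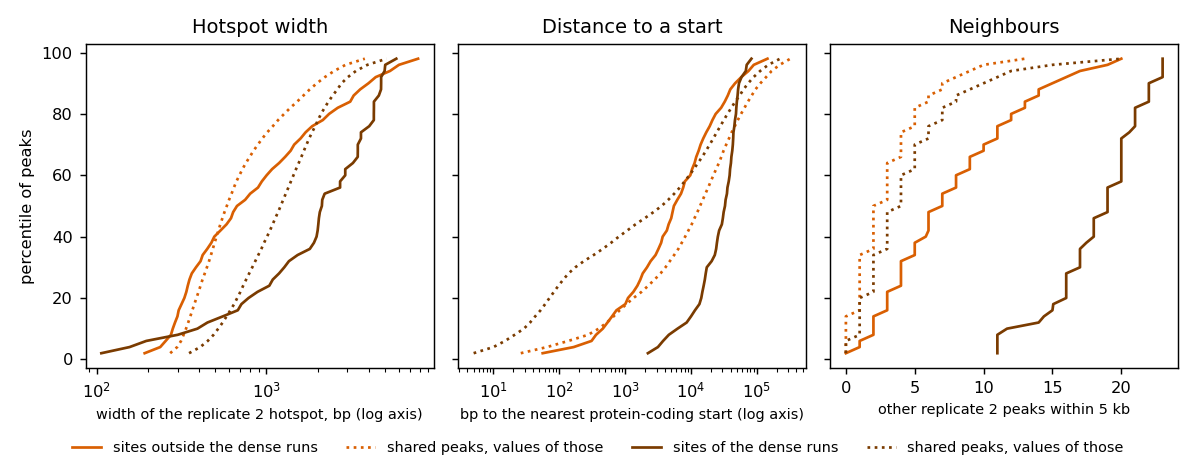
Percentile curves of hotspot width, distance to the nearest protein-coding start and number of other replicate 2 peaks within 5 kb. Solid curves are sites outside the dense runs (orange) and in them (brown). Dotted curves are shared peaks of all autosomes, weighted to the values of the sites of the same colour. For sites outside the dense runs the median distance is 5500 bp, against 13724 bp for shared peaks of the same values. The median number of neighbours is 7 and 2.

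The 498 sites were of 2 kinds. For 187 of them (37.6%, exact 95% interval 33.3% to 42.0%) the replicate 2 hotspot was wide enough to reach a replicate 1 region at another point, with a median width of 2353 bp and 5 peaks. The remaining 311 (62.4%) lay in hotspots that met no replicate 1 region anywhere, with a median width of 403 bp, and 244 of these sites were the only peak of their hotspot. The first kind was the promoter-rich one. Promoter-proximal sites made up 33.2% of the sites in partly shared hotspots and 8.68% of those in hotspots of replicate 2 alone, and the median distance to a start was 2429 bp and 9135 bp. Median values were 105 and 104.

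By nearest protein-coding start, the 498 sites belonged to 308 genes, 1.48% of the 20807 autosomal protein-coding genes. Of all 310 genes nearest to a site, 300 were also nearest to a shared strong peak, as were 13217 of the 20807 genes. At least 3 sites were found at 42 of the 310 genes and 1 site at 217. Outside the dense runs the largest counts were 12 at Rara, 9 at Irs2, 8 at Bcl9l and 7 each at Cpm, Pcdh17, Afap1l2, Cyp1b1 and Frmd8. The Frmd8 sites all lay inside Neat1, a long noncoding RNA gene that builds nuclear paraspeckles, over 5.77 kb in which replicate 2 had 12 peaks and replicate 1 had 3.

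Genes of the adipocyte program were frequent among them, on lists compiled with earlier results of these data known. Of 86 genes on 4 adipocyte lists, 21 were nearest to a site, with 49 sites between them, which is 9.84% of the 498 sites (exact 95% interval 7.37% to 12.8%). Shared peaks of the same values had 1.51% at the same genes. Counted as runs, 27 of 341 (7.92%) had a site at one of these genes, and shared peaks were not counted as runs. As many as 82 of the 86 genes also had a shared strong peak. Adipogenic transcription factors had 15 sites at 8 of 22 genes (3.01%, 1.70% to 4.92%, against 0.554% of shared peaks). These genes were Klf9, Cebpb, Zfp423, Tle3, Pparg, Klf4, Rxra and Cebpa. The nearest gene was taken without a distance limit. The Klf4 site lay 190 kb upstream, the Rxra site 76.4 kb and 1 Tle3 site 74.3 kb. Adipokines and insulin response had 17 sites at 6 of 21 genes (3.41%, 2.00% to 5.41%, against 0.488%), among them Irs2, Cfd, Insr, Nampt and Adipoq. Lipid storage and lipolysis had 10 sites at 5 of 22 genes (2.01%, 0.967% to 3.66%, against 0.184%), Lpl, Pnpla2, Cav2, G0s2 and Cavin1. Fatty acid and triglyceride synthesis had 7 sites at 2 of 21 genes, Agpat2 and Scd1 (1.41%, 0.567% to 2.87%, against 0.281%). These intervals count neighbouring sites singly, and Irs2 alone had 9 of the 17 sites of its list. Counted as runs, the 4 lists in this order had 10 (2.93%), 8 (2.35%), 7 (2.05%) and 2 (0.587%) of 341.

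Each of the other lists had at most 5 sites. The 5 sites of the glucocorticoid list (1.00%, exact 95% interval 0.327% to 2.33%, against 0.290% of shared peaks) were all at Klf9, which the adipogenic list holds too. Preadipocyte and fibroblast genes had 4 sites, at Prrx1 and Col1a1 (0.803%, 0.219% to 2.04%, against 0.357%). Inflammatory and interferon genes also had 4, at Cxcl1 and Socs3 (0.803%, 0.219% to 2.04%, against 0.225%). The glucocorticoid interval lay above the share in shared peaks, but it rests on 1 gene. Counted as runs, that list had 2 of 341 (0.587%). The intervals of the other 2 lists included the share in shared peaks. Thermogenic genes had 1 site, 66.5 kb upstream of Ppara (0.201%, against 0.189%). Bone and cartilage genes had 1, 331 kb downstream of the Sox5 start (0.201%, against 0.115%). No site was nearest to any of the 148 genes on the hepatocyte, muscle, neuronal, blood, endothelial, epithelial, pluripotency and germ cell lists. This allows a share of up to 0.602% of sites, and shared peaks of the same values had 0.581% there. It covers listed genes only. Egfl7, Cd93 and Elane were nearest to sites and are on none of these 8 lists. The homeobox, cell cycle and housekeeping lists had 0 sites each, against 0.0668%, 0.212% and 0.132% of shared peaks. Zfhx3 and Prrx1, homeobox genes that had sites, were not on the homeobox list.

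Around Pnpla2, which encodes adipose triglyceride lipase, 12 sites lay within 25.9 kb that also hold Cracr2b, Cd151, Polr2l, Tspan4 and Rplp2. The printed Pnpla2 intron site had a value of 136 in replicate 2, and the nearest replicate 1 peak was 950 bp away with a value of 94. A second Pnpla2 site, 0.727 kb upstream of the start, had a value of 126 and a replicate 1 peak of value 97 at 510 bp. The 4 sites at starts of Cracr2b, a regulator of calcium channels, had values of 131, 127, 101 and 107 and lay 1010 to 4770 bp from a replicate 1 peak. Across the whole stretch replicate 2 had 32 peaks with a median value of 111.5, and replicate 1 had 8 with a median of 90. Hotspots covered 68.8% of it in replicate 2 and 7.92% in replicate 1. Shared strong peaks lay nearest to Pnpla2 (3), Cd151 (3), Tspan4 (2) and Rplp2 (2). Cracr2b and Polr2l were nearest to none (0 each).

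Irs2, an adaptor that carries the insulin receptor signal, had 9 sites, 7 of them within a span of 12.0 kb inside the gene. Those 7 had replicate 2 values of 103, 103, 103, 104, 110, 105 and 111. Replicate 2 had 20 peaks in that span, where replicate 1 had 1 peak, of value 83. Of the 7, 6 shared a replicate 2 hotspot of 7815 bp, and 2 lay in exonic DNA that is coding throughout. Hotspots covered 60.2% of the span in replicate 2 and 1.75% in replicate 1.

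Rara, the retinoic acid receptor alpha gene, had the most sites outside the dense runs. Its 12 sites ran from 4.627 kb upstream of a Rara start, in the neighbouring Cdc6 gene, through the introns of Rara, with values from 100 to 118. Replicate 2 had 50 peaks over these 37.9 kb and replicate 1 had 16, with median values of 101.5 and 83. The printed intron site with the DR1 match had a value of 102, in a hotspot of 248 bp, and lay 2510 bp from a replicate 1 peak of value 68.

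**Figure D5:**
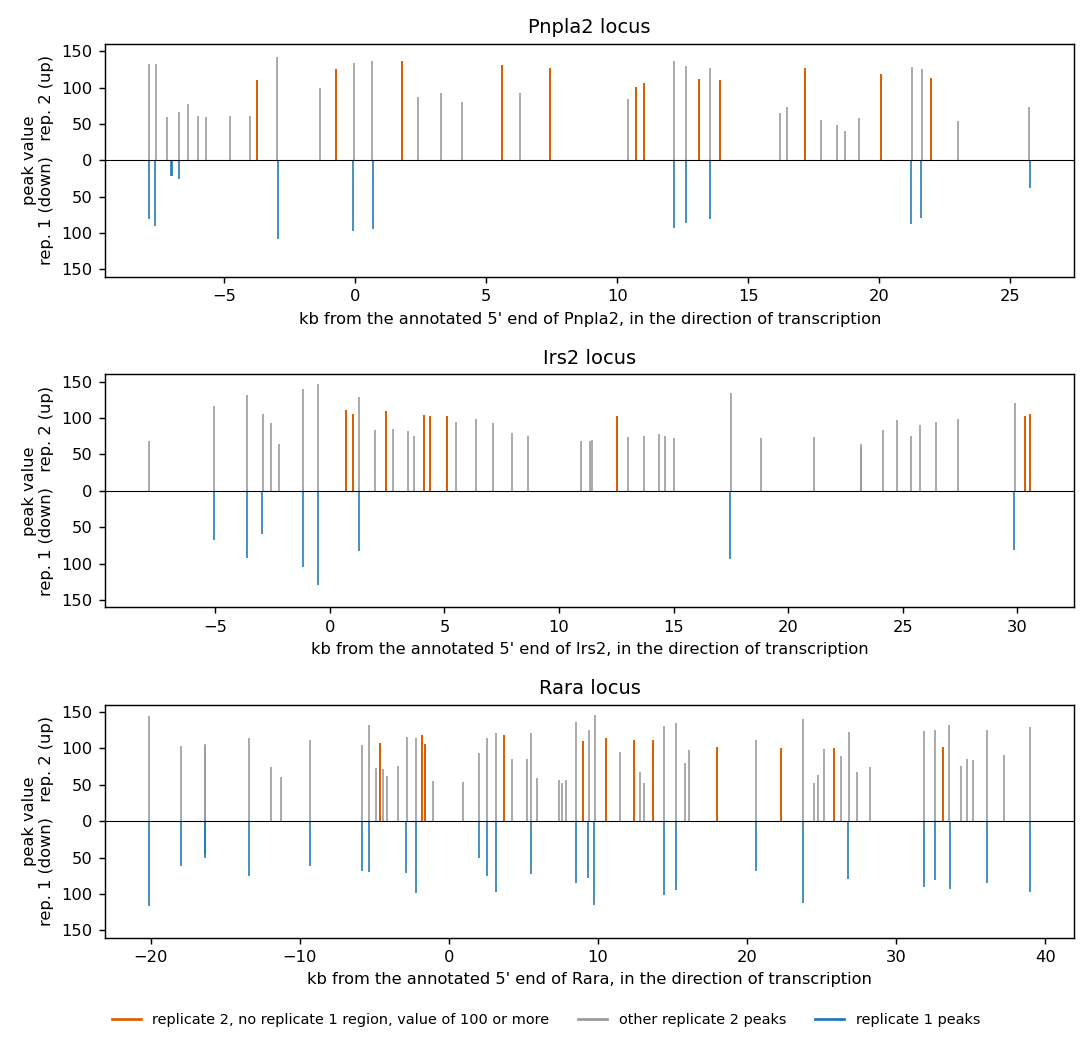
Peak values around Pnpla2, Irs2 and Rara, with replicate 2 upwards and replicate 1 downwards, against distance in kb from the 5′ end of each gene in the direction of transcription. The 12, 9 and 12 sites (orange) stand among other peaks, and these windows hold 43, 47 and 68 replicate 2 peaks against 14, 8 and 27 of replicate 1 (blue).

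At the other adipocyte genes the sites were fewer. Klf9, a zinc finger factor induced by glucocorticoids, had 5 sites with values of 115, 123, 104, 104 and 100. Its printed site lay 4.535 kb upstream of the start, in a hotspot of 3321 bp, 550 bp from a replicate 1 peak of value 97. Rxra, the DNA-binding partner of PPARγ, had 1 site of value 135 lying 76.4 kb upstream, 630 bp from a replicate 1 peak of value 103. Lpl, the lipase that frees fatty acids from lipoproteins, had 4 sites along its gene, 3.4 to 22.6 kb from a start, with values of 111, 112, 105 and 115. The nearest replicate 1 peaks had values of 49, 59, 97 and 33. Agpat2, an acyltransferase of triglyceride synthesis, had 4 sites with values of 108, 113, 102 and 103, of which 2 were at its promoter. Replicate 1 values of their nearest peaks were 64, 64, 110 and 75. Cfd, which encodes adipsin, had 3 sites within 0.97 kb, all in an intron of the neighbouring Med16 gene. Their values were 104, 102 and 106, and no replicate 1 peak fell in their span.

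Single sites stood at the central regulators. Pparg had 1 site of value 104 in an intron, in a hotspot of 7191 bp and 590 bp from a replicate 1 peak of value 70. Cebpa had 1 of value 100 and Adipoq, the adiponectin gene, 1 of value 101. The 2 Cebpb sites, with values of 106 and 101, lay in the 6475 bp and 2861 bp hotspots downstream of the gene.

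The distance to the nearest replicate 1 peak varied widely among further genes with several sites. Zfhx3, a large homeodomain transcription factor gene, had 4 sites with values of 102, 106, 122 and 112, of which 3 were at its start sites. They lay 8470 to 19610 bp from the nearest replicate 1 peak, and the 11.3 kb that held them contained 7 replicate 2 peaks and no replicate 1 peak. Pcdh17, a protocadherin gene, had 7 sites with values from 101 to 119 in an intron or exon, 23.0 to 47.2 kb into the gene. There replicate 2 had 37 peaks and replicate 1 had 2, of values 46 and 49, and the sites lay 270 to 23350 bp from the nearest replicate 1 peak. Prrx1, a homeobox factor of mesenchymal cells, had 3 sites of 126, 113 and 102, with a replicate 1 peak 310 to 1770 bp away. The 3 Prkaa1 sites, at the AMP-activated kinase gene, had values of 100 to 123 with no replicate 1 peak in their 1.35 kb, and the nearest one, of value 68, lay 450 to 1650 bp away.

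Each of the 10 genes with the promoter sites of highest value had at least 1 other site. After Cracr2b, Cwc22 and Pnpla2 came Zfhx3 (122), Tmem268 (121), Tspan4 (119), Adipor2 (118), which encodes an adiponectin receptor, Zfp395 (117), Nedd4 (116) and Nr1d1 (116), the circadian repressor REV-ERBα. Lower down, at Ywhag (113), Ralgapa2 (111) and Rhbdl1 (110), the promoter site was the only site of the gene. Bcl9l, a coactivator of β-catenin, had 8 sites with values from 105 to 118, of which 2 were at a promoter and 2 in its 3′ untranslated region. Cyp1b1, a cytochrome P450 gene, had 7 from 100 to 111. Aco1, an enzyme that doubles as an iron sensor, had 4 intronic ones from 104 to 127, in 8.27 kb with 10 replicate 2 peaks and 3 replicate 1 peaks. Afap1l2, Iqsec1, Lrig1, Sh3pxd2a, Il17b, Rgs2, Pank3 and Tapt1 had 4 to 7 sites each, with values from 100 to 120. Genes with 3 sites included Elk4, Pim3, Zfp36l1, Egfl7, Rbms1, Mknk2, Tnfrsf1a and Hsd11b2, with values from 100 to 124.

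Of the 23 motifs searched on both strands of each peak, CTCF showed the largest difference in percentage points. A CTCF match was found in 2 of the 498 sites (0.402%, exact 95% interval 0.0487% to 1.44%), against 7.28% of shared peaks of the same values and 4.49% of all strong peaks. Leaving out promoters gave 2 of 409 (0.489%), against 8.42%. The other 3 motifs whose share in shared peaks fell outside the interval of the sites were also scarcer in the sites. The NFI letters TGCCAA were in 13.9% of sites (10.9% to 17.2%), against 19.1% of shared peaks and 16.7% of all strong peaks. TATAAA was in 2.21% (1.11% to 3.92%), against 4.32% and 3.68%, and the RUNX letters TGTGGT were in 7.63% (5.46% to 10.3%), against 10.7% and 9.50%. Away from promoters the intervals for NFI (15.9%, 12.5% to 19.8%) and TATAAA (2.44%, 1.18% to 4.45%) still lay below the shared peaks, at 21.1% and 4.80%. The RUNX interval there (9.05%, 6.45% to 12.3%) included the 11.8% of shared peaks.

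For the C/EBP, AP-1 and DR1 motifs the share in shared peaks lay inside the interval of the sites. C/EBP letters TTGCNNAA were in 11.4% of sites (8.79% to 14.6%), against 12.2% of shared peaks and 10.8% of all strong peaks. AP-1 letters TGANTCA were in 9.64% (7.19% to 12.6%), against 9.08% and 8.06%. A DR1 match was in 4 sites (0.803%, 0.219% to 2.04%), against 0.683% and 0.572%. Besides the printed ones at Rara and Commd3, the DR1 matches were in 3′ exonic sites of Socs3 and Pim3. In the dense runs none of 168 sites had a CTCF or DR1 match, and the GC-rich SP/KLF letters GGGCGG were in 1.19%, against 25.4% of shared peaks of the values found there. Promoters held 41.5% of those shared peaks and 0.595% of the 168 sites. The part of promoter position in this difference was not tested. A letter match is no evidence of binding, and no binding was measured.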

How the data were processed

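DNase-seq was done on 2 biological replicates of day 8 adipocytes, each combining more than 1 technical replicate, per the labels. The authors deposited a list of 150 bp peaks for each replicate with a signal value per peak, whole numbers from 1 to 150; its scale is not given in the sources used. They also deposited hotspots with the −log10 of a q value, with a ceiling of 100. Not given in those sources are the caller, its filters and the read depth, and nothing says whether the cultures were separate differentiations. Coordinates were used on mm10 (GRCm38) with GENCODE M21, counted from 1. Identical lines (33 in replicate 2, 20 in replicate 1) were counted once.

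The sites and the gene and motif lists were chosen with earlier results of these data known, so no test was made. Shares carry exact binomial 95% intervals and medians order-statistic intervals, both for counting error only, and shared peaks were weighted to the value distribution of the sites they are set beside. A site was a promoter site within 1000 bp of a protein-coding start, and failing that counted as exonic, then intronic, then intergenic. Exons and gene bodies were those of protein-coding genes, so DNA inside noncoding genes alone counted as intergenic. Genes named are those nearest to the 20 sites of highest value, to at least 3 sites, to the 20 promoter sites of highest value or on 1 of 20 gene lists with a site. Commd3 was chosen after its motif match was seen. Some of the genes and sequences this rule gives are left out. Overlap, gap and weighting code was tested on simulated intervals. Python 3.11.15, pandas 2.3.3, NumPy 2.4.6 and SciPy 1.17.1 were used. Neither signal tracks nor alignments were used here.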

Additional observations from a re-analysis of the deposited data

Results flagged for a closer look

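Chromosome X lay outside the autosomal rule, yet 5 of its 969 strong replicate 2 peaks had no replicate 1 region. On chromosome Y 2 of 4 strong replicate 2 peaks had none. These peaks enter no result above.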

How the results depend on the processing

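Of 88 alternative values, 39 stayed within the interval or the 1.5-fold range of the value reported and 49 moved. With thresholds of 90, 110 and 120 there were 2013, 289 and 182 sites. Their median hotspot width was 562, 1899 and 2062 bp. At 110 and 120 the promoter share was 10.4% and 3.30%, the intergenic share 41.5% and 48.9% and the median distance to a start 16156 and 26841.5 bp, with an exon share of 4.95% at 120. With replicate 1 hotspots ignored there were 2190 sites, of which 38.4% were at promoters, 4.20% in exons, 27.6% in introns and 29.7% intergenic, at a median width of 1813.5 bp and a median distance of 3304.5 bp. At more than 1000 bp from every replicate 1 region there were 324 sites, with 6.17% at promoters, 53.1% in introns, a width of 539.5 bp and a distance of 13197.5 bp. Counting each hotspot once gave 513 sites and a width of 628 bp. Outside both dense runs, an alternative chosen after seeing the data like the following one and the joining of hotspots, 17.9% of sites were at promoters and 32.7% intergenic, with a width of 670.5 bp and a distance of 5500 bp. Outside the chromosome 2 run alone these were 16.7% at promoters, 38.8% in introns, 685 bp and 6851 bp. Promoter windows of 500 and 2500 bp gave promoter shares of 8.11% and 25.1%, the wider one with 36.5% in introns. Start sites, exons and gene bodies of every gene type gave a promoter share of 21.02%, with 27.0% intergenic. Joining hotspots up to 10 bp apart gave a width of 1342.5 bp, against 725 bp for shared peaks of the same values. Outside the dense runs the joined widths were 802.5 and 607 bp. Shared peaks without weighting were 30.9% promoter, 3.49% exon, 31.5% intron and 34.1% intergenic, with a width of 899 bp and a distance of 8010 bp. With shared redefined as an overlap of at least 50% of the peak, they were 22.9% promoter, with 671 bp and 11616 bp. The cause of these shifts was not tested. No paired analysis was possible because both libraries belong to 1 group and no comparison between groups was made. Leaving out a replicate was not possible either, since the sites are defined by both. Read depth is unknown, so whether deeper sequencing of replicate 1 would fill these sites was not tested.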
